A study of Mus musculus with 16 samples.

Results

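The genes described here are 6 secreted cytokines, Il6, Lif, Osm, Il2, Il9 and Il10. They were chosen by name, as IL-6 family members and other secreted interleukins, from the 39179 genes in the count files of bone marrow derived mast cells (BMMCs). IL-6, leukaemia inhibitory factor (LIF) and oncostatin M (OSM) are ligands of the IL-6 family, which signal through the shared receptor chain gp130, encoded by Il6st, and through Janus kinases to STAT transcription factors. IL-2 and IL-9 instead use receptors with the common gamma chain, encoded by Il2rg, and IL-10 binds its own receptor pair and is known for damping inflammation. In mast cells, antigen that crosslinks IgE on the high-affinity IgE receptor starts the transcription of cytokine genes within minutes to hours, and glucocorticoids are known to repress many of these genes.

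mRNA was measured by paired-end RNA-seq in 16 samples of BMMCs from PEP+/+ and PEP-/- male C57BL/6 mice, grown for 4 weeks in medium with stem cell factor and IL3. PEP is the PEST-domain-enriched tyrosine phosphatase, encoded by Ptpn22, and PEP-/- cells carry the mutant gene on both alleles. Every one of the 8 groups was sensitized for 3 h with 0.05 µg/ml IgE, and each held 2 samples. The groups labelled IgE received nothing else (sensitized cells). Those labelled IgE DNP were also given the antigen dinitrophenol (DNP) at 200 ng/ml during 1 h (activated cells). Those labelled IgE DEX were given the glucocorticoid dexamethasone (DEX) at 100 nM over 8 h, and those labelled IgE DNP DEX received both agents. No group was without IgE. The study's text gives a higher IgE dose than the labels do, and the labels' dose is printed here. The labels name 1 sample of each group by a number and the other by a letter, called replicate 1 and replicate 2 here. The study's text calls the replicates biological, but neither it nor the labels say whether they were separate cultures or animals, so the p-values measure the spread between these samples.

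Between 8612531 and 22143526 counts fell on genes in a library. Ptpn22 had 130 to 2799 counts in the PEP+/+ libraries and 0 to 55 in the PEP-/- libraries, with no overlap. Mast cell markers were read in every library, with a summed level of 63205 to 103765 CPM (counts scaled to a common library size). The 9 T cell markers, which bear on Il2 and Il9, summed to 0.0867 to 0.669 CPM. Of these, 5 had reads, namely Foxp3 in every library (0.0867 to 0.411 CPM) and Trac, Cd3d, Cd8a and Cd4 at up to 0.285 CPM. The T cell receptor genes Cd3e, Cd3g, Trbc1 and Trbc2 had no read. Macrophage markers summed to 13.3 to 48.7 CPM, mostly Cd68, and the 3 basophil markers, all with reads and mostly Cd200r3, to 228 to 882 CPM. These are bulk samples, so a lower level cannot be told apart from fewer cells that make the mRNA.

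Fold changes are on the log2 scale with a standard error, and a gene is said to rise or fall where edgeR's quasi-likelihood test gave a Benjamini-Hochberg adjusted p under 0.05 over the 13305 genes with enough reads. 5 of the 6 genes were among these, and Il10 was not. Il2 and Il9 had enough reads only because of their counts after IgE DNP, so a difference between that treatment and the others was built into their selection. The numbered and the lettered libraries differed in the same direction across groups, and a second fit held this difference as a block. The blocked value is given where it changes a call of the 6 cytokines, and for the gene lists the blocked calls are given beside the others.

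Il6, Lif and Osm lie on chromosomes 5, 11 and 11, and Lif and Osm are neighbours. In the mouse assembly GRCm38, Il6 (ENSMUSG00000025746) is at chr5:30013114-30019981 on the plus strand. Osm (ENSMUSG00000058755) is at chr11:4236420-4241026 and Lif (ENSMUSG00000034394) at chr11:4257557-4272514, both on the plus strand with 16530 bases between them. Osm is the protein-coding gene nearest to Lif. Il2 (ENSMUSG00000027720) is at chr3:37120523-37125959 on the minus strand, where it overlaps Adad1 on the opposite strand without sharing exonic bases. Il9 (ENSMUSG00000021538) is at chr13:56479277-56482246 on the minus strand, and Il10 (ENSMUSG00000016529) at chr1:131019845-131024974 on the plus strand. The counts are summed over the exons of each gene.

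RefSeq promoter sequences on GRCm38.p6 were matched for 4 of the 6 genes, those of Il6, Lif, Il2 and Il9. Sequences are shown for these 4 because the reference used held none for Osm and Il10. Each is 250 bases long and ends at the base before the gene's RefSeq start, at chr5:30012864-30013113 (plus strand) for Il6, chr11:4257318-4257567 (plus strand) for Lif, chr3:37125955-37126204 (minus strand) for Il2 and chr13:56482258-56482507 (minus strand) for Il9. Capitals mark, on either strand, the AP-1 letters TGANTCA, the NFAT core GGAAA and the NF-kB letters, GGGNN followed by TTNCC. AP-1, NFAT and NF-kB are the factors best known for activating cytokine genes after antigen.
Il6: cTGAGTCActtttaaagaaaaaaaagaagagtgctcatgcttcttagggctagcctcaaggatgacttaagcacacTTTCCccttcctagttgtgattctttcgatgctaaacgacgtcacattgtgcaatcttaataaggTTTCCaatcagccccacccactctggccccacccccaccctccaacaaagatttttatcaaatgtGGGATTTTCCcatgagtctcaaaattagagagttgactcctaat
Lif: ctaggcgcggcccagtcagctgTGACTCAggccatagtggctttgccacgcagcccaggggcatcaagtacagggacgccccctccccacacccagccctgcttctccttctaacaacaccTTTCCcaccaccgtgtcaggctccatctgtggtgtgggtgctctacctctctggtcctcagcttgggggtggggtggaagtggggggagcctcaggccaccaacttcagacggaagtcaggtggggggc
Il2: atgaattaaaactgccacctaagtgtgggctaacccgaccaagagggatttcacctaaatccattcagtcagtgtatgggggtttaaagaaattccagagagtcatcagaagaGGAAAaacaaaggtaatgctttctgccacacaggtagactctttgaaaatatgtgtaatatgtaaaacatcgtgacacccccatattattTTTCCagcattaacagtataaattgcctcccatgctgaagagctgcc
Il9: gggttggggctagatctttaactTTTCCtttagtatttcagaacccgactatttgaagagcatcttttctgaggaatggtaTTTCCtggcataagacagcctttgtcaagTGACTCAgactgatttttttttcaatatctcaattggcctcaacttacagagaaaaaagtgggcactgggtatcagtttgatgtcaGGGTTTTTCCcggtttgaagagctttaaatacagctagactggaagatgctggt

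The AP-1 letters stood once each in the Il6, Lif and Il9 windows, 249, 228 and 140 bases before the start, and are held by 6.75% of the 32851 promoters of the same length. The NF-kB letters stood in the Il6 window, 44 bases before the start, and in the Il9 window, 54 bases before it, and are held by 4.11% of promoters. In both windows the NF-kB letters overlap an NFAT core on the minus strand. NFAT cores numbered 3 in Il6, 1 in Lif, 2 in Il2 and 3 in Il9, and 55.6% of promoters hold at least 1. The Il2 window also holds the TATA box letters TATAAA, 31 bases before the start, which 12.4% of promoters have. The Il6 window holds the CRE core TGACG, which 17.8% of promoters have, and the GATA letters GATAA, which 22.6% have. Neither the STAT letters TTCNNNGAA nor the half-site AGAACA of the glucocorticoid response element was found in these 4 windows. They are held by 7.02% and 16.1% of promoters. A match of letters is a description and was not tested as a binding site.

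**Figure D1:**
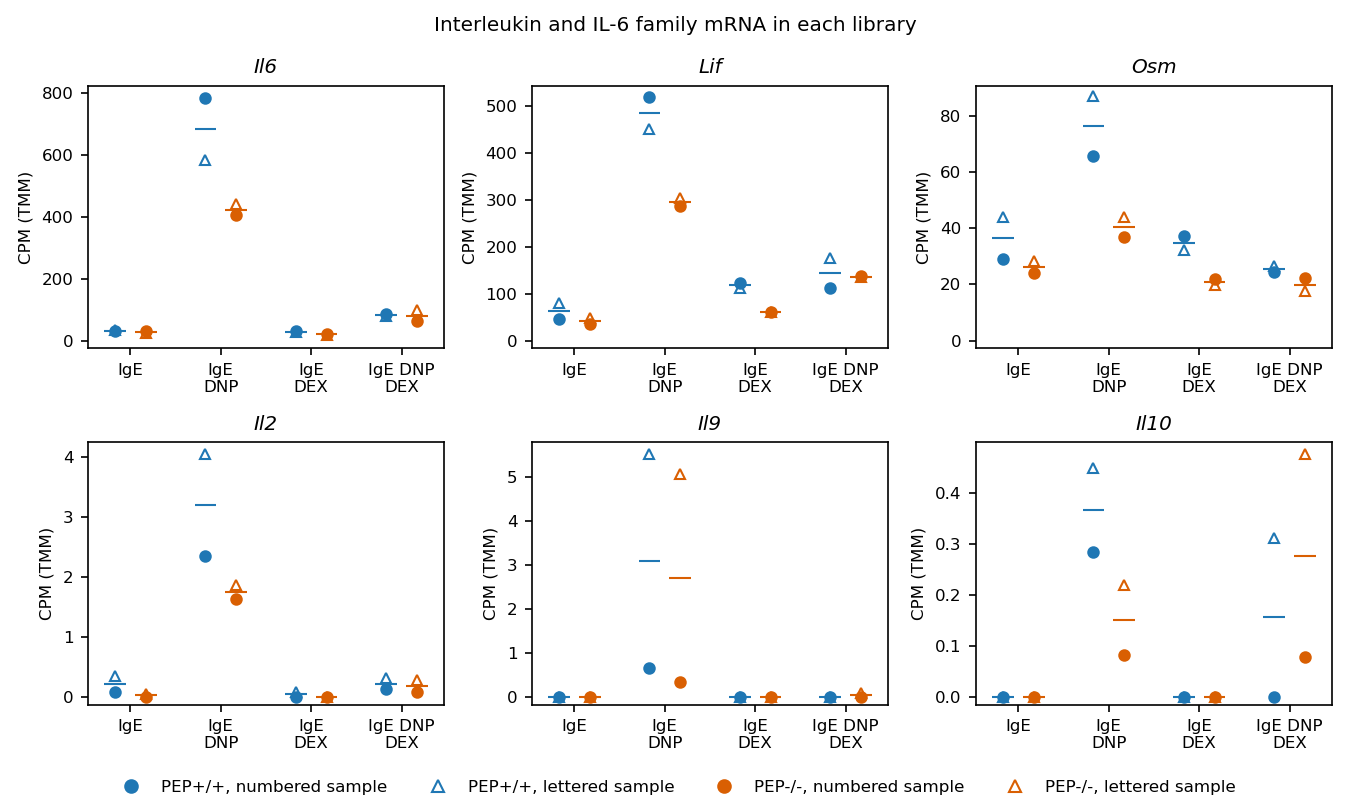
CPM (y axis, TMM-scaled, a separate range for each gene) of the 6 genes in each of the 16 libraries, by treatment (x axis). Circles are numbered samples, triangles lettered samples, blue PEP+/+, orange PEP-/-, and bars are group means of 2 libraries. All 6 genes had their highest group mean in PEP+/+ IgE DNP, while the highest single library of Il10 was PEP-/- IgE DNP DEX.

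The first comparison asked which of the 6 cytokine mRNAs antigen raised. Il6, Lif and Osm, which had enough reads after every treatment, all rose with DNP averaged over both genotypes, where 9.07% of all genes tested rose and 7.58% fell. In PEP+/+ alone all 3 rose, where 4.01% of genes did, and in PEP-/- alone Il6 and Lif, where 4.69% did. Il2 and Il9 are not counted against these shares, because their reads after IgE DNP decided that they were tested. Il6 rose most among the 3 abundant ones, Lif less and Osm least. Summed basophil markers were 539 to 623 CPM after IgE and 750 to 882 CPM after IgE DNP, and the 5 dendritic cell markers 0.147 to 0.781 and 1.23 to 3.26 CPM. Their part in the rise was not tested. The basophil sum is mostly Cd200r3, so a change in basophil number cannot be told apart from a change in that gene.

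Il6 encodes IL-6, a cytokine of acute inflammation. In PEP+/+ cells its level was 31.7 and 33.2 CPM after IgE, and 783 and 584 CPM after IgE DNP. In PEP-/- cells it was 29.6 and 23.8 CPM after IgE, and 404 and 440 CPM after IgE DNP. Every activated library was far above every sensitized one. The rise was 4.19 ± 0.18 on the log2 scale averaged over genotypes (edgeR adjusted p = 1.42e-07), 4.40 in PEP+/+ and 3.98 in PEP-/-, which is 21-fold and 15.8-fold.

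Lif encodes LIF, which acts through the receptor chain Lifr together with gp130. Its level in PEP+/+ cells was 46.6 and 79.7 CPM after IgE, and 518 and 451 CPM after IgE DNP. In PEP-/- cells it was 36.1 and 48.9 CPM after IgE, and 287 and 304 CPM after IgE DNP. The groups did not overlap in either genotype. The rise was 2.87 ± 0.20 on the log2 scale (edgeR adjusted p = 3.61e-06), 2.94 in PEP+/+ and 2.80 in PEP-/-.

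Osm encodes OSM, which shares gp130 with LIF and also uses the chain Osmr. In PEP+/+ cells it had 29.2 and 43.8 CPM after IgE, and 65.6 and 87.1 CPM after IgE DNP. In PEP-/- cells it had 23.9 and 28.2 CPM after IgE, and 36.9 and 43.8 CPM after IgE DNP. Activated libraries were above sensitized ones within each genotype, but the lowest activated PEP-/- library was below the highest sensitized PEP+/+ library. The rise was 0.85 ± 0.17 on the log2 scale averaged over genotypes (edgeR adjusted p = 0.00488). In PEP+/+ it was 1.06 (adjusted p = 0.0224), which rested on PEP+/+ IgE replicate 1 and PEP+/+ IgE DNP replicate 2, without which the adjusted p was 0.186 and 0.189. In PEP-/- it was 0.63 with an adjusted p of 0.158, or 0.0255 with the block, which called 13.3% of all genes as rising. The difference between the genotypes' responses was -0.43 ± 0.33 (adjusted p = 1).

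Il2 encodes IL-2, a growth factor of T cells, and was rare. It had 25 and 36 counts after IgE DNP in PEP+/+, and 20 and 34 in PEP-/-. After IgE it had 1 and 4 counts in PEP+/+, and 0 and 1 in PEP-/-. The activated libraries were all above the sensitized ones. In CPM these activated libraries stood at 2.36 and 4.05 in PEP+/+, and at 1.64 and 1.87 in PEP-/-. Pooled over the 4 libraries of each treatment, 115 counts against 6 gave a 21.4-fold higher level (95% exact interval 9.53 to 59.5, counting error only). It was 50.8-fold without PEP+/+ IgE replicate 2, which held 4 of the 6 counts. The edgeR difference was 4.67 ± 0.70 on the log2 scale (adjusted p = 0.00119). Il2 was tested only because of its reads after IgE DNP, so the edgeR p-values given here are no independent support for a rise. Within PEP+/+ the adjusted p was 0.0284, and leaving out any of its 4 libraries gave 0.0578 (IgE DNP replicate 1), 0.079 (IgE replicate 2), 0.144 (IgE DNP replicate 2) and 0.194 (IgE replicate 1). Within PEP-/- it was 0.0129, and 0.0921, 0.093 and 0.0624 without IgE replicate 1, IgE replicate 2 and IgE DNP replicate 2.

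Il9 encodes IL-9, a growth factor for T cells and mast cells. It had no count in any of the 4 sensitized libraries. After IgE DNP it had 7 and 49 counts in PEP+/+, and 4 and 92 in PEP-/-. Both lettered libraries (5.51 and 5.06 CPM) were several times above both numbered ones (0.662 and 0.328 CPM), a gap between the label sets that is larger than any gap between the genotypes. Against a floor of 3 counts over the sensitized libraries, the pooled level was at least 56.5-fold higher. Without PEP-/- IgE DNP replicate 2, which held 92 of the 152 counts, this bound was 35.1-fold, and without PEP-/- IgE replicate 2 it was 36.7-fold. The edgeR adjusted p was 0.0268 averaged over genotypes, but 0.215 by DESeq2. It was above 0.05 without each of PEP+/+ IgE replicates 1 and 2 (0.0623 and 0.0603), PEP-/- IgE replicates 1 and 2 (0.0563 and 0.0725), PEP+/+ IgE DNP replicate 2 (0.0677) and PEP-/- IgE DNP replicate 2 (0.0776). With the block it was 1.31e-05. Within PEP+/+ it was 0.161 (0.000416 with the block) and within PEP-/- 0.134 (0.000209 with the block). Il9 was tested only because of its reads after IgE DNP, so these p-values are no independent support for a rise.

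Il10 encodes IL-10 and stayed near the limit of detection. It had no count after IgE or IgE DEX, 3 and 4 counts after IgE DNP in PEP+/+, and 1 and 4 in PEP-/-. All 4 activated libraries thus held at least 1 read and no sensitized library did. The pooled level was at least 4.46-fold higher after IgE DNP than after IgE, from 12 counts against the floor of 3, or at least 2.9-fold without PEP-/- IgE replicate 2. An exact permutation test of the CPM (4 libraries against 4, two-sided) gave p = 0.0286, the smallest this design allows, and 0.0857 after adjustment over the 3 treatment differences tested for this gene.

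Per kilobase of exon, the mean level after IgE DNP over 4 libraries was 228 ± 70.9 CPM (SD) for Il6, 89.7 ± 25.9 for Lif, 25.7 ± 10 for Osm, 5.39 ± 5.18 for Il9, 2.17 ± 0.952 for Il2 and 0.198 ± 0.117 for Il10. Il9 and Il2 did not differ in level beyond their spread. After IgE alone the order among the abundant genes was different, with Osm at 13.8 ± 3.82, Il6 at 12.2 ± 1.7 and Lif at 12.1 ± 4.32 CPM per kilobase, levels that lay within one another's spread.

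The second comparison asked how far DEX lowered the cytokine mRNAs in activated cells. Il6, Lif and Osm all fell averaged over both genotypes, where 4.99% of all genes tested fell and 5.67% rose. In PEP+/+ alone Il6, Lif and Osm fell, where 1.05% of genes did (9.76% with the block), and in PEP-/- alone Il6 and Osm, where 1.19% did (9.33% with the block). Il6 kept a smaller share of its activated level than Lif and Osm in both genotypes. Il2 and Il9 also passed averaged over genotypes, but were chosen for testing through their activated level, so they are neither counted nor ranked here. Summed basophil markers were 431 to 479 CPM after IgE DNP DEX, below all libraries after IgE DNP, and 228 to 392 CPM after IgE DEX, below all libraries after IgE. Their part in the differences with DEX was not tested, and this sum too is mostly Cd200r3, so it does not give the number of basophils.

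In IgE DNP DEX libraries, Il6 was at 87.1 and 78.8 CPM in PEP+/+, and at 61.7 and 97.5 CPM in PEP-/-. All 4 values lay between the sensitized and the activated libraries, and the genotypes overlapped. Il6 fell by 2.72 ± 0.17 on the log2 scale (edgeR adjusted p = 2.69e-06). PEP+/+ cells kept 12.1% of their activated mean and PEP-/- cells 18.9%.

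Lif was at 112 and 175 CPM with DNP and DEX in PEP+/+, and at 137 and 136 CPM in PEP-/-. These too lay above all sensitized and below all activated libraries. Lif fell by 1.43 ± 0.19 (edgeR adjusted p = 0.000727), keeping 29.6% of the activated mean in PEP+/+ and 46.3% in PEP-/-. In PEP+/+ it fell by 1.76 (adjusted p = 0.00503, or 0.0597 without PEP+/+ IgE DNP DEX replicate 1). In PEP-/- the difference was -1.11 with an adjusted p of 0.0508, or 0.00221 with the block.

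Osm was at 24.3 and 26.6 CPM with DNP and DEX in PEP+/+, and at 22.3 and 17.6 CPM in PEP-/-. Unlike Il6 and Lif, Osm with both agents was lower than after IgE alone in all 4 comparisons within a genotype and label set. Against IgE DNP it fell by 1.30 ± 0.17 (edgeR adjusted p = 0.0006), to 33.4% of the activated mean in PEP+/+ and 49.5% in PEP-/-. In PEP+/+ it fell by 1.58 (adjusted p = 0.00446, or 0.0508 without PEP+/+ IgE DNP DEX replicate 1). In PEP-/- it fell by 1.02 (adjusted p = 0.0432), and the adjusted p was 0.112 to 0.271 when any of the 4 PEP-/- libraries was left out. Against IgE alone the difference was -0.45 ± 0.17 with an adjusted p of 0.0773. That p was 0.0181 with the block, and 0.0385 without PEP+/+ IgE replicate 1.

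Il2 had 1 and 5 counts with DNP and DEX in PEP+/+, and 1 and 3 in PEP-/-. Against IgE alone the pooled ratio was 1.97 with a 95% exact interval of 0.649 to 6.6 (10 against 6 counts), so a difference was not detectable at this depth. The pooled level was 10.8-fold higher without DEX than with it (95% exact interval 5.69 to 23.2, 115 against 10 counts). The edgeR difference was -3.47 ± 0.63 (adjusted p = 0.00605). Within a genotype the adjusted p was 0.0526 in PEP+/+ (0.000403 with the block) and 0.0947 in PEP-/- (0.00219 with the block). Because Il2 was tested only through its reads after IgE DNP, these p-values are no independent support for a fall.

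Il9 had a single count in the 4 IgE DNP DEX libraries, in a PEP-/- library, against 152 counts without DEX. The pooled ratio was 143 (95% exact interval 25.3 to 5699). It was 94.5 without PEP+/+ IgE DNP DEX replicate 2 and 89.1 without PEP-/- IgE DNP replicate 2. Without PEP-/- IgE DNP DEX replicate 2, which held the single count, the level was at least 37.1-fold higher without DEX. The edgeR adjusted p was 0.0499 averaged over genotypes. It was 0.342 by DESeq2 and 3.18e-05 with the block. Only without PEP-/- IgE DNP replicate 1 did it stay under 0.05 (0.0377), and without each of the 7 other libraries it was 0.0542 to 0.138. Within PEP+/+ it was 0.205 (0.000403 with the block) and within PEP-/- 0.279 (0.00128 with the block). Because Il9 was tested only through its reads after IgE DNP, these p-values are no independent support for a fall.

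For Il10 a change with DEX was not detectable at this depth. It had 0 and 5 counts with DNP and DEX in PEP+/+, and 1 and 5 in PEP-/-, and in CPM it was lower with DEX in 3 of 4 comparisons within a genotype and label set. The pooled ratio of IgE DNP over IgE DNP DEX was 1.03 with a 95% exact interval of 0.416 to 2.57, which holds the 2.46-fold fall of Osm. The exact permutation p was 0.8 (adjusted 0.8 over the 3 differences).

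**Figure D2:**
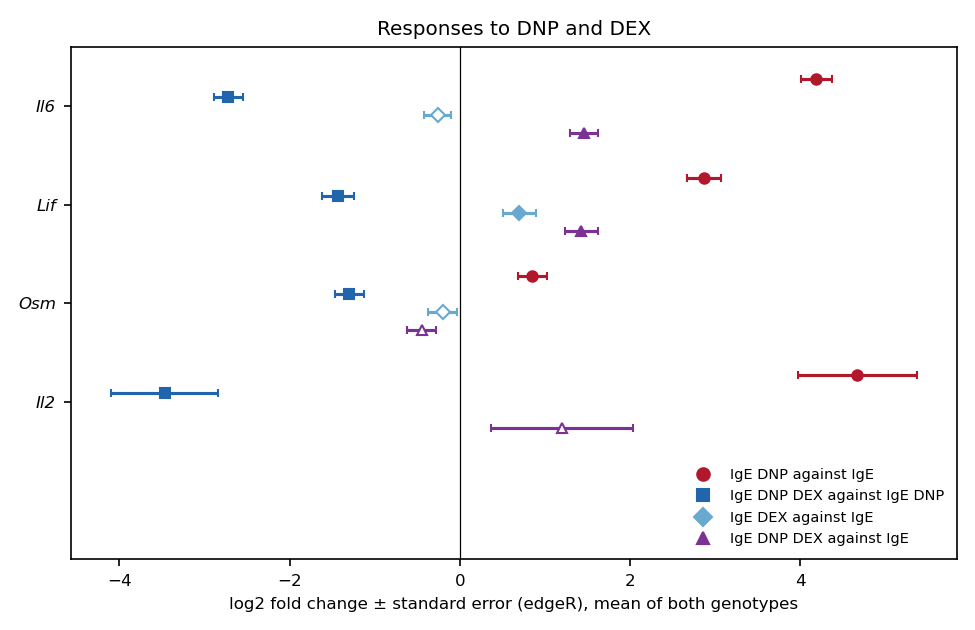
edgeR log2 fold change with its standard error (x axis) for 4 genes (y axis) in 4 treatment comparisons averaged over both genotypes. Filled symbols have an adjusted p under 0.05 and open symbols do not. Il2 was tested only because of its reads after IgE DNP, so its filled symbols are no independent support for a change. Il2 has no value for IgE DEX against IgE because its PEP-/- groups held too few counts (0 after IgE DEX and 1 after IgE). Osm alone has a value below 0 for both agents against IgE.

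In cells without antigen, Lif was higher with DEX than without it. Lif was at 123 and 112 CPM after IgE DEX in PEP+/+, and at 60.7 CPM in both PEP-/- libraries. Every IgE DEX library was above its IgE counterpart, although the genotypes' ranges overlapped across the treatments. Lif rose by 0.70 ± 0.19 on the log2 scale (edgeR adjusted p = 0.0406, where 5.4% of all genes tested rose and 3.98% fell). The adjusted p was under 0.05 without PEP+/+ IgE replicate 2 (0.0148) and was 0.0534 to 0.159 without each of the 7 other libraries. It was 0.0834 in a fit of the 4 groups compared alone, and 0.00247 with the block. Il6 was at 30.5 and 27.4 CPM in PEP+/+ and 22 and 19.5 CPM in PEP-/-, a difference of -0.26 (adjusted p = 0.464). Osm was at 37.2 and 32.2 CPM in PEP+/+ and 21.8 and 19.8 CPM in PEP-/-, a difference of -0.20 (adjusted p = 0.648). Il2 had 2 counts in the 4 IgE DEX libraries, and Il9 and Il10 had none.

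Antigen still raised Il6 and Lif in the presence of DEX, where 7.19% of all genes tested rose. Against IgE DEX, Il6 rose by 1.73 ± 0.17 with DNP and DEX (edgeR adjusted p = 7.23e-05) and Lif by 0.73 ± 0.19 (adjusted p = 0.0293). Lif was higher in 3 of 4 comparisons within a genotype and label set, and lower in the numbered PEP+/+ pair (112 against 123 CPM). The Lif call was kept only without PEP+/+ IgE DNP DEX replicate 1 (0.0157), and the adjusted p was 0.0556 to 0.104 without each of the 7 other libraries. Osm did not pass (-0.25, adjusted p = 0.388). Il2 differed by 3.22 with an adjusted p of 0.0681, or 0.0175 with the block. Against cells with IgE alone, Il6 with both agents rose by 1.46 ± 0.17 (adjusted p = 0.000105) and Lif by 1.43 ± 0.19 (adjusted p = 0.000362), where 12.3% of all genes tested rose.

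The response to antigen was smaller under DEX for Il6 and Lif, tested as an interaction. The difference between the responses was -2.46 ± 0.23 for Il6 (edgeR adjusted p = 0.00229) and -2.14 ± 0.27 for Lif (adjusted p = 0.00857), and only 0.271% of all genes tested had a call in this direction. For Osm it was -1.10 ± 0.24 with an adjusted p of 0.136, or 0.00767 with the block. The Il6 and Lif calls were kept without each of the 16 libraries.

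The third comparison asked whether loss of PEP changed the cytokine mRNAs. Osm was lower in PEP-/- cells in all 8 comparisons within a treatment and label set, and Il6 and Lif in 7 of 8 each. How many of all genes were lower as often was not counted. The 8 comparisons are not known to be independent, because libraries of a label set deviated alike across groups. Averaged over the 4 treatments, Osm fell by 0.62 ± 0.12 (edgeR adjusted p = 0.0278), where 1.16% of all genes tested fell. The call was kept without PEP+/+ IgE replicate 1, PEP+/+ IgE DNP replicate 1, PEP+/+ IgE DEX replicate 2 and either PEP+/+ IgE DNP DEX replicate, and without each of the 11 other libraries the adjusted p was 0.0533 to 0.0862. Lif differed by -0.58 ± 0.14 with an adjusted p of 0.0603, or 0.00241 with the block and 0.00417 by DESeq2. Without PEP+/+ IgE replicate 1 or PEP+/+ IgE DNP DEX replicate 1 the Lif adjusted p was 0.0257 or 0.0417. Il6 differed by -0.38 ± 0.12 with an adjusted p of 0.138, or 0.0193 with the block. With the block, 9.64% of all genes tested fell.

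Within single treatments no cytokine passed the test between genotypes, with edgeR or with DESeq2, and 0.00752% of all genes tested fell in each, which is Ptpn22 alone. At an unadjusted p under 0.05 there were 3 of these genes after IgE DNP (Il6, Lif and Osm), 2 after IgE DEX (Lif and Osm) and 0 after IgE and after IgE DNP DEX. At that p, 3.28% of all genes tested were lower in PEP-/- after IgE DNP, 1.61% after IgE DEX, 2.79% after IgE and 1.26% after IgE DNP DEX. After IgE DNP the PEP-/- mean was 61.7% of the PEP+/+ mean for Il6, 61% for Lif, 52.8% for Osm and 54.7% for Il2. For each of these 4 genes the libraries of the genotypes did not overlap, but 2 libraries against 2 can separate without any difference. How many of all genes separated in this way was not counted, and Il2 was tested only through its reads after IgE DNP. The log2 differences were -0.70 ± 0.23 (edgeR adjusted p = 0.757), -0.71 ± 0.27 (0.95), -0.92 ± 0.24 (0.614) and -0.86 ± 0.72 (1), and that of Osm had an adjusted p of 0.0257 with the block, where 1.56% of all genes tested fell. Il9 differed by -0.16 ± 1.35 (adjusted p = 1), and without PEP-/- IgE DNP replicate 1 or PEP+/+ IgE DNP replicate 2 its difference was 0.74 or 2.06.

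After IgE the log2 differences between genotypes were -0.28 for Il6, -0.57 for Lif and -0.49 for Osm, and after IgE DEX they were -0.48, -0.95 and -0.73. With DNP and DEX together they were close to 0 for Il6 (-0.06 ± 0.23) and Lif (-0.07 ± 0.27), and -0.35 ± 0.24 for Osm. The PEP-/- mean was then 96%, 95.5% and 78.3% of the PEP+/+ mean. Whether these differences depended on the treatment was tested as an interaction. For antigen it was -0.41 ± 0.33 for Il6, -0.14 ± 0.38 for Lif and -0.43 ± 0.33 for Osm. For DEX in activated cells it was 0.64 ± 0.32, 0.64 ± 0.38 and 0.57 ± 0.33. All had an adjusted p of 1, 0 of the 13305 genes tested were called by edgeR or DESeq2 in either interaction, and 30 and 95 genes had an unadjusted p under 0.05. That is far fewer than the share of 0.05 due where no gene differs, so the fit without the block was conservative here. With the block 0 genes were called in either interaction as well. Summed macrophage markers, mostly Cd68, were 19.7 to 36.8 CPM after IgE DNP in PEP+/+ and 38.5 to 43.4 CPM in PEP-/-. After IgE DNP DEX they were 23.6 to 37.6 and 45.7 to 48.7 CPM, after IgE 13.3 to 24.4 and 25.9 to 26.4 CPM. After IgE DEX the genotypes overlapped (16.7 to 23.8 and 22.1 to 36.5 CPM). Their part in the cytokine differences between genotypes was not tested.

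**Figure D3:**
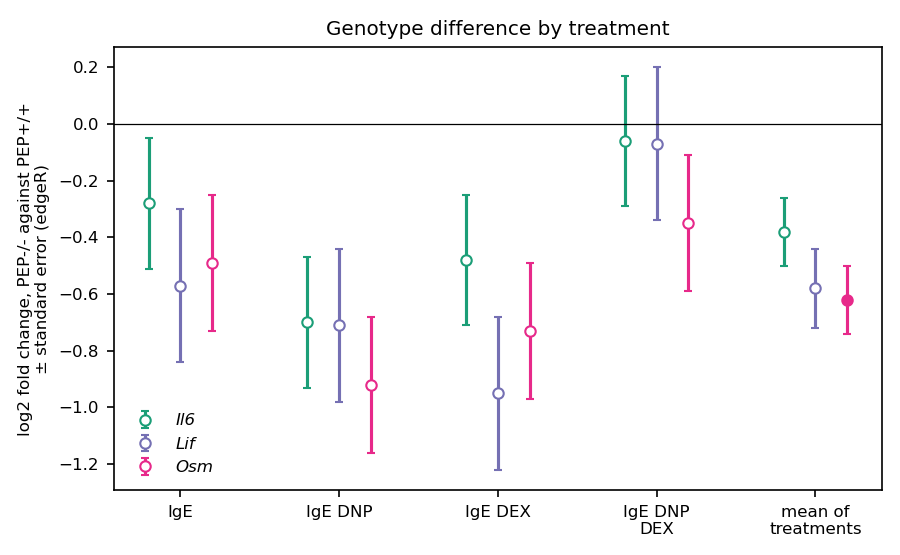
edgeR log2 fold change of PEP-/- against PEP+/+ with its standard error (y axis) for Il6, Lif and Osm after each treatment and averaged over the treatments (x axis). The filled symbol, Osm averaged over treatments, is the only one with an adjusted p under 0.05, and every value plotted is below 0.

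The genes around these cytokines were read as 5 lists. Of 9 other IL-6 family ligands, Ebi3 and Clcf1 had enough reads. Clcf1, which encodes cardiotrophin-like cytokine factor 1, rose from 0.181 ± 0.0745 CPM (SD, 4 libraries) after IgE to 2.25 ± 0.925 CPM after IgE DNP, by 3.60 ± 0.68 on the log2 scale (edgeR adjusted p = 0.00365). It had enough reads only through the treatments with DNP, so this rise was built into its selection. With DEX as well it was at 0.637 ± 0.489 CPM, a difference of -1.78 with an adjusted p of 0.0841, or 0.000985 with the block.

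Of 14 receptor chains of these cytokines, 9 had enough reads. The ligand-binding chains for IL-6 and OSM were nearly unread, with 0 to 4 counts of Il6ra and 0 to 2 of Osmr in a library, as was Il2rb with 0 to 4. With DNP, 3 chains rose, where 9.07% of all genes tested rose and 7.58% fell, with a list median of 0.15 beside -0.00 for all genes. Those that rose were Il2ra, the alpha chain of the IL-2 receptor (1.87 ± 0.32, adjusted p = 0.00207), Il2rg (1.13 ± 0.18, 0.00148) and Il10ra, the ligand-binding chain for IL-10 (1.22 ± 0.17, 0.000511). With the block Il9r rose too (adjusted p = 0.00873), where 18.6% of all genes rose and 19.3% fell.

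DEX raised the shared chain Il6st. Of all genes tested 5.4% rose and 3.98% fell with DEX in sensitized cells, and 5.67% and 4.99% in activated cells. Without antigen, Il6st went from 1.53 ± 0.545 to 13.5 ± 2.91 CPM, a rise of 3.13 ± 0.42 (edgeR adjusted p = 0.000626). Il2ra rose from 46.7 ± 13.2 to 404 ± 158 CPM, by 3.11 ± 0.34 (adjusted p = 0.000142). With the block Il10ra rose (adjusted p = 0.00313) and Il9r (0.00306), Il10rb (0.00873) and Il11ra1 (0.0407) fell, where 12.9% of all genes rose and 13.8% fell. In activated cells DEX raised Il2ra by 1.81 ± 0.32 (adjusted p = 0.00407). There Il6st was at 1.07 ± 0.605 CPM after IgE DNP and 3.02 ± 0.347 CPM after IgE DNP DEX. Il6st rose by 1.48 ± 0.43 (0.0496), with an adjusted p of 0.00559 to 0.136 when single libraries were left out, under 0.05 in 1 of 8 such fits. With the block Il2rg (adjusted p = 0.0186) and Il27ra (0.0437) fell, where 15.9% of all genes rose and 17.4% fell. Lifr, the LIF receptor chain, had enough reads only through the treatments with DEX, so its rise was built into its selection and is given with no test. It was at 0.319 ± 0.234 CPM after IgE and 3.35 ± 1.56 CPM after IgE DEX, with edgeR differences of 3.21 ± 0.58 there and 4.34 ± 0.69 in activated cells.

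The 10 Janus kinases and STATs reported here all had enough reads. With DNP 4 of these 10 rose, where 9.07% of all genes tested rose and 7.58% fell. Their median difference was 0.20 on the log2 scale. Those that rose were Jak2 (1.65 ± 0.22, edgeR adjusted p = 0.000366), Stat5a (0.70 ± 0.21, 0.039), Jak1 (0.66 ± 0.14, 0.00714) and Stat6 (0.52 ± 0.14, 0.0238). The Stat5a and Stat6 calls were each kept in 2 of 8 fits without 1 library. With the block Stat4 rose as well (adjusted p = 0.00679), and Stat2 (0.00462) and Stat5b (0.0063) fell, where 18.6% of all genes rose and 19.3% fell. DEX in activated cells raised Stat4 (1.05 ± 0.13, 0.000403) and Jak1 (1.04 ± 0.14, 0.000716) with a median of 0.07, where 5.67% of all genes tested rose and 4.99% fell. With the block Stat2 (0.00805) and Stat3 (0.0381) rose and Jak3 (0.0436) fell too, where 15.9% of all genes rose and 17.4% fell. In sensitized cells DEX raised 4, namely Stat4 (1.00 ± 0.13, 0.000548), Jak2 (0.82 ± 0.21, 0.0348), Jak1 (0.75 ± 0.14, 0.00535) and Stat3 (0.60 ± 0.16, 0.0367), with a median of 0.26, and the block called 4 as well. Of all genes tested 5.4% rose and 3.98% fell in sensitized cells, or 12.9% and 13.8% with the block. The Jak2 and Stat3 calls there were each kept in 2 of 8 fits without 1 library.

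Of 10 feedback and common STAT target genes, all with enough reads, 4 rose with DNP, with a list median of 0.67. Among all genes tested 9.07% rose and 7.58% fell. Socs3, an inhibitor of gp130 signalling that STAT3 induces, was at 2.43 ± 1.6 CPM after IgE and 31 ± 15.7 CPM after IgE DNP, a rise of 3.74 ± 0.48 (edgeR adjusted p = 0.000283). Bcl3, a partner of NF-kB, rose by 3.88 ± 0.46 (0.000178), and Cish, an inhibitor of STAT5 signalling, by 2.38 ± 0.42 (0.0024). The kinase gene Pim1 rose by 1.5 ± 0.47 (0.0489), a call kept in 2 of 8 fits without 1 library. With the block Socs2 (0.000961) and Socs1 (0.00247) rose and Ptpn2 (0.0282) fell too, where 18.6% of all genes rose and 19.3% fell. With DEX in activated cells 0 of the 10 passed with edgeR (4 at an unadjusted p under 0.05) and 1 with DESeq2, and the list median was -0.48. With the block Socs1 rose (0.0111) and 6 fell, among them Socs3 by 1.32 (adjusted p = 2.88e-05). Of all genes tested 5.67% rose and 4.99% fell in activated cells, or 15.9% and 17.4% with the block. For DEX in sensitized cells these shares were 5.4% and 3.98%, or 12.9% and 13.8% with the block. In sensitized cells DEX raised Socs1 by 1.59 ± 0.45 (0.0499), a call kept in 1 of 8 fits without 1 library, and with the block Cish rose too (1.35e-05) and Socs2 (0.000268), Bcl3 (0.00991) and Ptpn2 (0.0204) fell.

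Between genotypes, on average over treatments, 0 of the 40 genes tested and reported from the 5 lists passed with edgeR (7 at an unadjusted p under 0.05) and 5 with DESeq2. With the block 6 were higher in PEP-/- and 4 lower, where 7.72% of all genes were higher and 9.64% lower. Those higher were Stat3 (0.39, adjusted p = 0.00127), Stat5b (0.30, 0.00635), Tyk2 (0.23, 0.0202), Stat2 (0.37, 0.0325), Stat5a (0.35, 0.0453) and Il9r (0.40, 0.0492). Those lower were Socs3 (-1.13, 0.000165), Socs1 (-0.96, 0.000511), Cish (-0.58, 0.00175) and Il13 (-0.86, 0.0103).

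**Figure D4:**
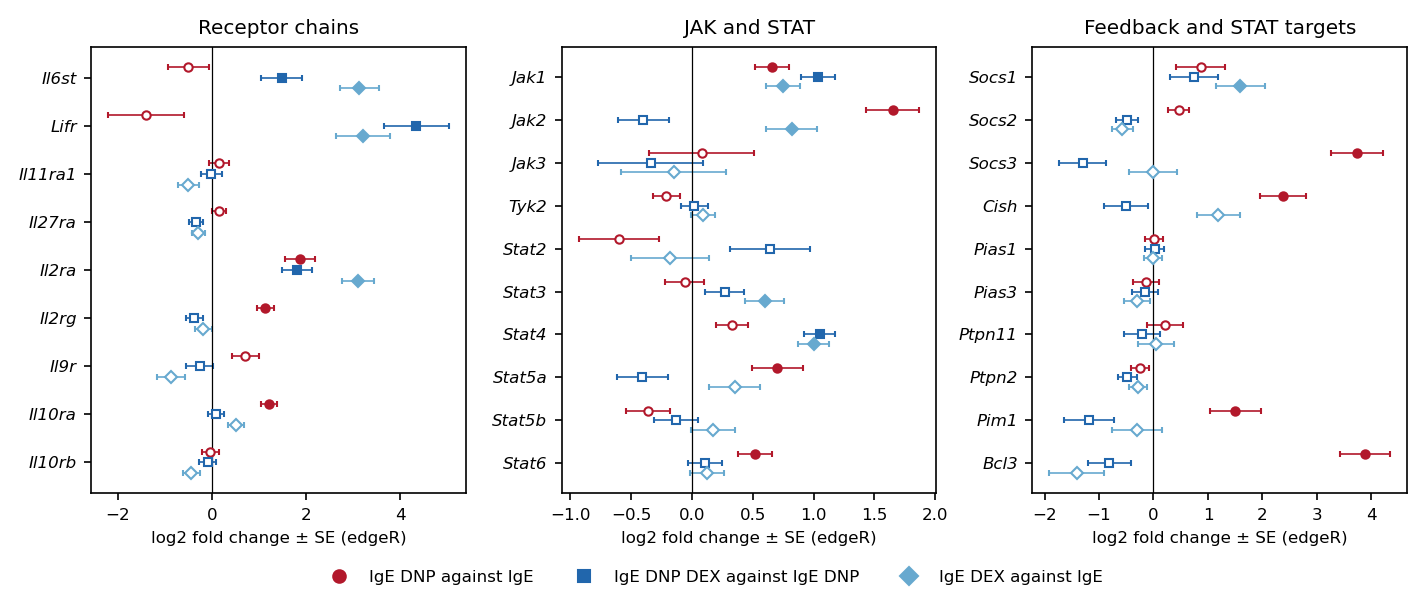
edgeR log2 fold change with its standard error (x axis) for the receptor chains, the kinases and STATs, and the feedback and STAT target genes that had enough reads (y axis), in 3 treatment comparisons averaged over both genotypes. Filled symbols have an adjusted p under 0.05. The open circle of Il6st lies below 0 with DNP, while its filled square and diamond lie above 0 with DEX. Lifr had enough reads only through the treatments with DEX, so its filled symbols are no test of a rise.

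Among 23 other interleukins, 9 had enough reads and 7 had no read in any library. With DNP 5 rose and 2 fell, where 9.07% of all genes tested rose and 7.58% fell. The 5 include Il1a, Il33 and Il5, so that count is not to be set against this share. Il13, the mast cell cytokine of allergic inflammation, went from 4.3 ± 0.928 to 476 ± 217 CPM (6.70 ± 0.34, edgeR adjusted p = 3.66e-07). Il1a went from 0.507 ± 0.183 to 42 ± 14.7 CPM (adjusted p = 1.16e-05), and Il33 from 0.0184 ± 0.0367 to 11.6 ± 5.55 CPM (0.00019). Il5, at 0 in all sensitized libraries, reached 0.828 ± 0.311 CPM (0.00796, or 0.0627 by DESeq2). Il1a, Il33 and Il5 had enough reads only through treatments with DNP, so their rise was built into their selection. Il5 had them through IgE DNP alone, so its fall with DEX was built in as well. With the block Il4 rose too (0.00326), where 18.6% of all genes rose and 19.3% fell. With DEX in activated cells 5 fell, Il5, Il1a and Il33 among them, and Il15 rose (0.0299). Of all genes tested 4.99% fell and 5.67% rose, but a count that holds Il5, Il1a and Il33 is not to be set against these shares. Il13 was at 23 ± 11.5 CPM (-4.36 ± 0.30, edgeR adjusted p = 4.4e-06). With the block Il16 rose too (0.00476), where 15.9% of all genes rose and 17.4% fell.

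The genes most like each cytokine across the 16 libraries, by Pearson's r of log2 CPM, were Ccl3, Ccl7 and Ch25h for Il6 (each 0.98) and Cdkn1a (0.94), Tnf (0.93) and Map3k8 (0.93) for Lif. For Osm they were Wars (0.89), Clptm1 (0.88) and Clpb (0.87), genes whose levels moved little with antigen. Wars, for example, was at 59 CPM after IgE and 68.5 CPM after IgE DNP. Il2 was most like Il1a (0.96), Il6 (0.95) and Adamts1 (0.95), and Il9 most like the granzyme genes Gzmd (0.91), Gzmc (0.91) and Gzme (0.90). Gzmd, Gzme and Ch25h were near the floor, with means of 1.52, 1.19 and 1.14 CPM after IgE DNP and at most 0.201 CPM after the other treatments. By Spearman's rho Gzmd, Gzmc and Gzme ranked 8, 153 and 930 for Il9, and Ch25h 291 for Il6. Between the cytokines, r was 0.92 for Il6 and Lif and 0.95 for Il6 and Il2, and 0.67 for Il6 and Osm and 0.68 for Lif and Osm. The libraries share treatments, genotypes and label sets, so these values describe likeness over this design.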

How the data were processed

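Total RNA from BMMCs was sequenced as stranded, paired-end mRNA libraries (TruSeq) on 16 samples in 8 groups. The authors aligned reads with TopHat2 to GRCm38 and counted them per gene with HTSeq, and deposited raw counts, 1 file per sample. The strand setting of the counting is not given in the sources used here. Of all tallied entries, 29.1% to 49.6% were in the 5 rows that name no gene, which were left out. 37693 of 39179 gene identifiers were named through GENCODE M21.

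Counts were filtered with edgeR 4.0.16 (R 4.3.3; filterByExpr, minimum count 10), scaled by TMM, and fitted with 1 mean per group over all 16 samples (8 residual degrees of freedom, common biological coefficient of variation 0.312). p-values of the quasi-likelihood test were adjusted over 13305 genes and called under 0.05. CPM use the TMM library sizes. Where both sides of a difference, or of any 1 of the differences averaged, held at most 3 counts, no fold was given. The same was done where any group of an interaction held at most 3 counts. Exact 95% intervals of pooled counts cover counting error only. The code was tested on simulated data.

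The block for label sets is reported because deviations from group means correlated between all 28 pairs of groups (Pearson's r over genes 0.453 to 0.799, median 0.718); what the sets stand for is not stated in the labels. Alternatives were the block, DESeq2 1.42.0, its size factors, other filters, fits of the compared groups alone, and leaving out each library. The 6 genes, the gene lists, the motifs and the comparisons were chosen with earlier results of these data known. All 6 genes, Ptpn22, up to 4 called genes per list by size of change, and the 3 genes of highest correlation (log2 CPM, prior count 2) per cytokine were named. List genes called only with the block were named after their values were seen. Of the kinase and STAT list, 1 gene is not reported here and is left out of the counts and medians of that list.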

Additional observations from a re-analysis of the deposited data

Results flagged for a closer look

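The antigen response of Il6 and that of Lif differed between cells without and with DEX, by the interaction test across all genes. The difference was -2.46 on the log2 scale for Il6 and -2.14 for Lif, as given in the report. Both were negative in each of the fits that left out 1 of the 16 libraries, and with the replicate block. Groups of 2 samples are too small for a test of single outlying samples.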

How the results depend on the processing

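No result of the 6 genes changed its call with DESeq2's size factors except Lif for DEX in activated PEP-/- cells, which passed. The counts below are of the 5 genes tested. They include Il2 and Il9, tested only through their reads after IgE DNP, so they only show how calls moved. With the block, 5 instead of 3 were called for DNP in PEP-/-, where calls among all genes went from 960 to 3480. For DEX in activated PEP+/+ it was 5 instead of 3 (all genes 403 to 2511), and in PEP-/- 5 instead of 2 (436 to 2408). Between genotypes it was 1 instead of 0 after IgE DNP (1 to 248) and 3 instead of 1 on average (212 to 2310). For DNP in PEP+/+ it was 5 instead of 4 (785 to 2809). For DNP under DEX (1678 to 5007) and the DNP by DEX interaction (44 to 209) it was 3 instead of 2. Osm was called too for both agents against IgE (3028 to 6464). The block weakened none of the calls of the 6 genes or of the named list genes. Without a filter on low counts, 5 and 5 were called for DEX in activated PEP+/+ and PEP-/-. It was 4 instead of 2 for DNP under DEX, and 2 between genotypes on average. Among all 23136 genes, 831, 769, 1880 and 472 were called in these comparisons. In fits of the compared groups alone, 2 instead of 4 were called for DNP in PEP+/+. It was 5 and 0 for DEX in activated PEP+/+ and PEP-/-, and 0 instead of 1 for DEX in sensitized cells. Among all genes 126, 211, 20 and 965 were called in these comparisons. Averaged over genotypes, Il9 did not pass in such fits for DNP (adjusted p = 0.0621) or for DEX in activated cells (0.0575). DESeq2 gave 4 instead of 5 for DNP (2700 among all genes) and for DEX in activated cells (1942), each averaged over genotypes. It gave 4 instead of 3 for DEX in activated PEP+/+ (842) and 4 instead of 2 in PEP-/- (838). It gave 2 instead of 1 between genotypes on average (697) and 3 instead of 2 for the DNP by DEX interaction (101).

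When 1 library was left out, the number called ranged from 4 to 5 for DNP, 2 to 3 for DNP in PEP+/+ and in PEP-/-, 4 to 5 for DEX in activated cells, 1 to 3 in PEP+/+ and 1 to 1 in PEP-/-, 0 to 1 for DEX in sensitized cells, 1 to 2 for DNP under DEX, 2 to 3 for both agents against IgE, 0 to 2 between genotypes on average, and 2 to 2 for the DNP by DEX interaction. It was 0 for the other genotype comparisons. Such fits assume that a lone sample varies like the others, and the cause of the changes was not tested. The counts include Il2 and Il9 and stand beside no share over all genes, so they describe only how the calls moved. The pooled ratios of Il2, Il9 and Il10 without single libraries were computed after the data were seen.

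Directions that turned were not called either way. Between genotypes with DNP and DEX, Il6 (-0.06) was 0.24 without PEP-/- replicate 1 (range -0.44 to 0.24), Lif (-0.07) was 0.29 without PEP+/+ replicate 2 (-0.37 to 0.29), and Il2 (-0.44) was 0.24 and 0.41 without these (-1.53 to 0.41). Il9 after IgE DNP (-0.16) was 0.74 and 2.06 without PEP-/- replicate 1 and PEP+/+ replicate 2 (-3.16 to 2.06). In the genotype by DNP interaction Lif (-0.14) was 0.19 and 0.10 without PEP+/+ IgE replicate 1 and PEP-/- IgE replicate 2 (-0.58 to 0.19), and in the genotype by DEX interaction Il2 (0.42) was -0.05 and -0.70 without PEP+/+ IgE DNP replicate 2 and PEP-/- IgE DNP DEX replicate 2 (-0.70 to 1.24).

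Over all genes, the block raised the number called from 2216 to 5042 for DNP, from 1418 to 4429 for DEX in activated cells, from 1247 to 3548 for DEX in sensitized cells, and from 212 to 2310 between genotypes on average, where DESeq2 called 697. Ranks by Spearman's rho replaced most of the like genes for 4 of 5 cytokines. Il2, Il9 and Il10 rested on few counts, which limits their precision, and 2 samples per group limit every test.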
